A study of Mus musculus with 12 samples.

Results

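The genes described here encode the proteins of the mitochondrial ribosome. They were taken from the deposited table by symbol, as every row that starts with Mrpl or Mrps and a number. This gave 77 of 15366 genes, of which 48 encode proteins named for the large subunit (Mrpl) and 29 proteins named for the small subunit (Mrps). The rule reads symbols and no measured value, although the gene family was chosen with earlier results of these data known. All 77 passed the filter on low values. RNA had been measured by sequencing in LSK cells of mouse bone marrow, named for a lack of lineage markers and for Sca-1 and Kit on the surface, which include the blood stem cells and early progenitors. The mice were untreated C57BL/6 animals, and the cells were sorted by flow cytometry. Each of the 4 genotype groups had 3 libraries. The double lesion group carried a human KDM6B transgene under Vav, Vav Cre and floxed Tet2 on both alleles. The KDM6B OE group carried the same transgene, and its label names no Cre. The Tet2 KO group carried Vav Cre with floxed Tet2 on both alleles. The Vav Cre group carried Vav Cre alone. Vav sequences drive expression across blood cells, so neither lesion is limited to LSK cells. Animal ages are not given in the labels, and nothing there states that each library was made from its own animal. P-values then measure the spread between these libraries, which may be technical in part.

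The mitochondrial ribosome translates the few proteins that mitochondrial DNA encodes, which are core subunits of the respiratory chain and of ATP synthase. Its ribosomal RNAs come from mitochondrial DNA, whereas all of its proteins are encoded in the nucleus, made in the cytosol and imported. Some of these proteins descend from the ribosome of the bacterial ancestor and others were added later and are found in mitochondria alone. KDM6B is a demethylase that acts on histone H3, and TET2 oxidises methylated cytosine in DNA. Blood stem cells are known for low protein synthesis and little use of respiration relative to more mature progenitors.

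Libraries held 21935022 to 26263370 reads on the listed genes. Values are CPM, read counts over library sizes scaled by the authors, and levels between genes are compared only per kilobase of transcript. The column totals are therefore not equal, and run from 947374 CPM in double lesion 1 to 1076730 CPM in Vav Cre 2. Tet2 was measured at 37.2, 35.1 and 26.5 CPM in double lesion libraries 1, 2 and 3 and at 31.6, 24.9 and 24.1 CPM in Tet2 KO. It was at 64.9, 87.6 and 84.5 CPM in KDM6B OE and at 82.9, 66.2 and 97.1 CPM in Vav Cre, so each library with floxed Tet2 lay below each without. Mouse Kdm6b is not the human transgene, so its count is no measure of it. Libraries differed in a trend on transcript length, also within groups. The level of a gene relative to the mean of the 12 libraries changed with each doubling of transcript length. The change was −0.21 on the log2 scale in Vav Cre 2 and 0.10 in double lesion 1, the 2 ends of the range. It was −0.08 and 0.01 in Vav Cre 1 and 3, and 0.04 and 0.03 in double lesion 2 and 3. Tet2 KO 2, at −0.11, also lay apart from Tet2 KO 1 and 3, at 0.07 and 0.03. Transcripts of the Y chromosome were present in double lesion 1 and 3, Tet2 KO 1 and Vav Cre 1 and not above background in the other 8 libraries, and the labels do not give sex.

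Mitochondrial ribosomal protein mRNA was lowest in the double lesion and highest in Vav Cre. Summed over the 77 genes, it came to 4994, 5766 and 5802 CPM in double lesion libraries 1, 2 and 3. The sums were 5760, 6383 and 6585 CPM in KDM6B OE and 5801, 7365 and 6438 CPM in Tet2 KO. Vav Cre had 7045, 9363 and 6895 CPM. The double lesion and Vav Cre libraries did not overlap, whereas Tet2 KO 2 lay above Vav Cre 1 and 3 and KDM6B OE 1 lay below double lesion 2 and 3. As mean ± SD (n = 3 each), the sums were 5521 ± 457 CPM in the double lesion, 6242 ± 430 CPM in KDM6B OE and 6534 ± 786 CPM in Tet2 KO, with 7768 ± 1384 CPM in Vav Cre. The double lesion mean was 71.1% of that in Vav Cre, and it was 79.2% without Vav Cre 2, 74.5% without double lesion 1 and 83.0% without both. As a share of the reads on listed genes, the 77 genes held 0.527%, 0.582% and 0.594% in double lesion libraries 1, 2 and 3. In Vav Cre they held 0.705%, 0.870% and 0.678%. In these bulk samples, fewer cells of a type and less RNA per cell cannot be told apart.

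**Figure D1:**
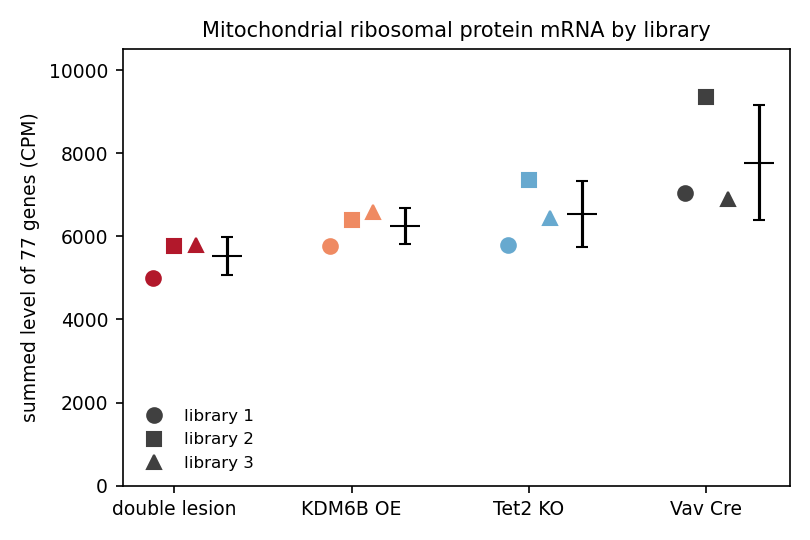
Summed level of the 77 mitochondrial ribosomal protein genes in CPM (vertical axis, from 0) in each library of the 4 groups (horizontal axis). Symbols are libraries 1, 2 and 3 and the bars give the group mean ± SD; the double lesion libraries lie between 4994 and 5802 CPM, below the Vav Cre libraries at 6895 to 9363 CPM.

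The members did not have the same level. Mean CPM per kilobase of the main transcript over the 12 libraries had a median of 53.6. The highest large subunit genes were Mrpl42 with 245, Mrpl33 with 236, Mrpl34 with 174 and Mrpl28 with 165 CPM per kilobase. The highest small subunit genes were Mrps15 with 119.9, Mrps21 with 116, Mrps33 with 114 and Mrps18c with 104 CPM per kilobase. The lowest were Mrpl47 with 8.77, Mrps25 with 8.92, Mrps5 with 12.9 and Mrpl1 with 14.2 CPM per kilobase. The main transcript of Mrps25 is 6073 bases and that of Mrps5 is 4481 bases, against a median of 1288 bases for the 77 genes and 2916.5 bases for all tested genes.

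Against Vav Cre, 39 of the 77 genes fell in the double lesion and none rose (limma, adjusted p under 0.05 over 13046 genes). By the same test 7.58% of all tested genes fell and 7.34% rose. The median log2 fold change of the 77 genes was −0.50, against 0.05 over all tested genes, and 75 of the 77 values were negative, against 45.6% of all genes. An unadjusted p under 0.05 was found for 60 of the 77 and for 32.3% of all genes. On the recovered reads, edgeR called 38 members lower (7.14% of all genes) and DESeq2 48 (11.3%). In 59 of the 77 genes (76.6%) the 3 double lesion libraries all lay below the 3 Vav Cre libraries, as did 16.4% of all tested genes. The 39 genes that fell had fold changes of −0.77 to −0.42. The other 38 had adjusted p from 0.0537 to 0.989 and values from −0.57 to 0.15.

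The count of 39 rests on single libraries. Without double lesion 1, 2 genes passed the test, Mrpl2 and Mrps15, where 1.09% of all genes fell. Without Vav Cre 2, 7 passed (Mrpl2, Mrpl28, Mrpl34, Mrpl48, Mrps9, Mrps15 and Mrps18c), where 2.34% of all genes fell. The count was 17 without double lesion 2 (3.46% of all genes) and 19 without double lesion 3 (3.68%). Without both double lesion 1 and Vav Cre 2, none passed and the median was −0.26, where 0.433% of all genes fell. In that fit 29 members had an unadjusted p under 0.05, as did 2167 of all 12944 tested genes. With the KDM6B OE and Tet2 KO libraries left out of the fit, 3 passed (Mrpl2, Mrpl28 and Mrps35), as did 1.09% of all genes. Mrpl2 passed in 23 of the 24 fits, edgeR and DESeq2 among them, Mrpl28 and Mrps15 in 22, and Mrpl34, Mrpl48, Mrps9, Mrps18c and Mrps35 in 21.

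**Figure D2:**
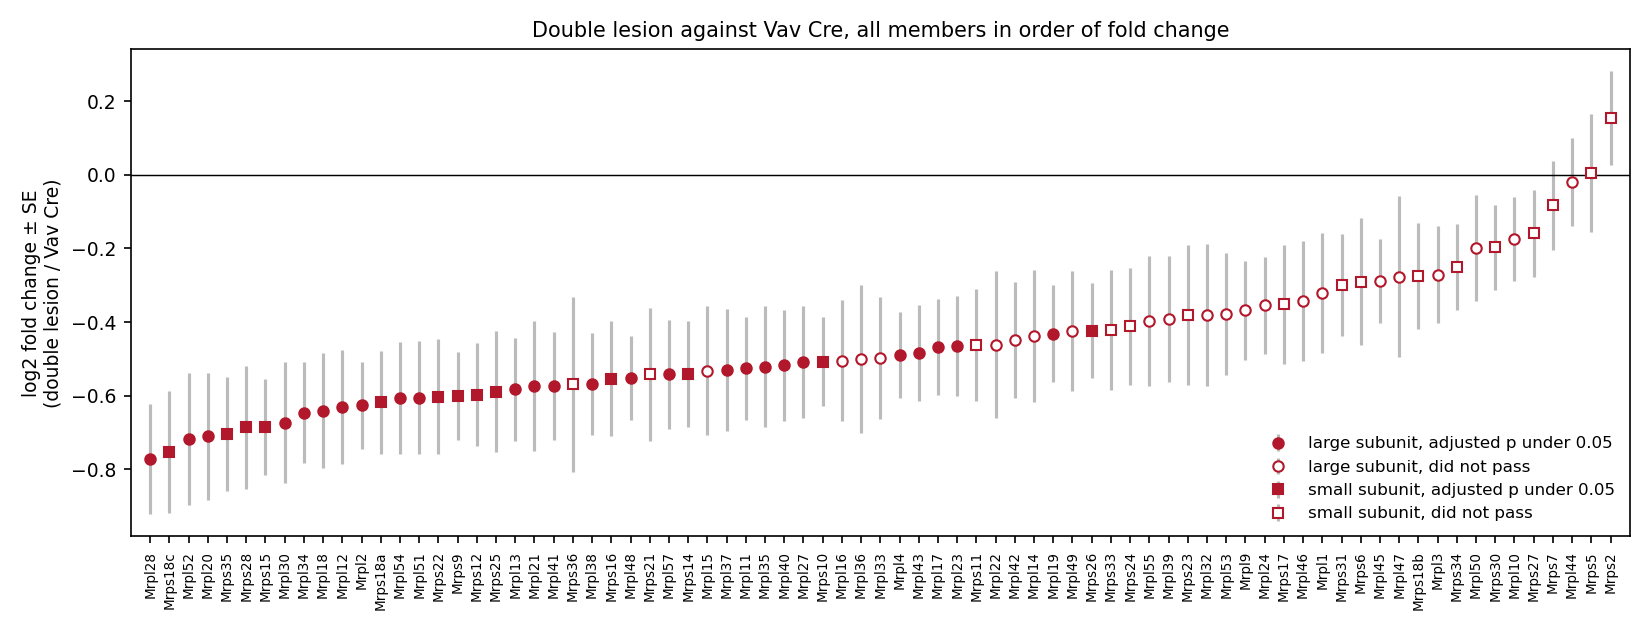
Log2 fold change of the double lesion over Vav Cre (vertical axis, log2(CPM + 1) scale, with SE as grey lines) for the 77 genes in order of the value (horizontal axis). Filled symbols are the 39 genes with an adjusted p under 0.05, circles are large and squares small subunit genes; the values run from −0.77 for Mrpl28 to 0.15 for Mrps2 and 2 lie above 0.

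In the large subunit, 26 of 48 genes fell, with a median of −0.50, where 7.58% of all tested genes fell. Among the 29 with a bacterial relative, 16 fell (median −0.50). The split by bacterial relatives, here and below, was made after values were seen. Mrpl28 (chromosome 17, 26123500 to 26126613, GRCm38) was measured at 119, 148 and 131 CPM in double lesion libraries 1, 2 and 3 and at 198, 280.1 and 210.5 CPM in Vav Cre. All 3 double lesion libraries lay below all 3 Vav Cre libraries, and Vav Cre 2 was the highest of them. Its mean was 133 ± 14.6 CPM in the double lesion and 229 ± 44.3 CPM in Vav Cre (SD, n = 3 each), a log2 fold change of −0.77 ± 0.15 (limma adjusted p = 0.00863; 0.0518 without double lesion 1). Mrpl2 (chromosome 17, 46646229 to 46650139), whose bacterial relative lies next to the catalytic centre of the ribosome, was at 83.1, 97.7 and 89.1 CPM in the double lesion and 141, 153 and 125 CPM in Vav Cre. These groups did not overlap either, and the change was −0.63 ± 0.12 (limma adjusted p = 0.00773; 0.0462 without double lesion 1 and 0.0249 without Vav Cre 2).

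Among relatives of the bacterial ribosomal stalk and its base, where translation factors bind, Mrpl12 and Mrpl11 fell and Mrpl10 did not pass. Mrpl12 (chromosome 11, 120484613 to 120489065), which also binds the mitochondrial RNA polymerase, was at 119, 143 and 135 CPM in the double lesion and 166, 261 and 197 CPM in Vav Cre (−0.63 ± 0.15, limma adjusted p = 0.0205). Mrpl11, whose relative lies at the base of the stalk, was at 62.1, 66.4 and 63.5 CPM in the double lesion and 87.3, 110.2 and 82.4 CPM in Vav Cre (−0.53 ± 0.14, adjusted p = 0.0277). Mrpl10, whose relative anchors the stalk and which is named here after its values were seen, was at 75.7, 87.8 and 93 CPM in the double lesion and 92.6, 108 and 89.4 CPM in Vav Cre (−0.17 ± 0.12, adjusted p = 0.317). Its groups overlapped, and none of the 24 fits called it. In Mrpl12 and Mrpl11 every double lesion library lay below every Vav Cre library, and Vav Cre 2 was the highest of the 12. Without double lesion 1 the adjusted p was 0.0995 for Mrpl12 and 0.107 for Mrpl11, and without Vav Cre 2 it was 0.0675 and 0.102, so the calls of Mrpl12 and Mrpl11 ended.

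Further large subunit genes with a bacterial relative that fell were Mrpl20 at −0.71 ± 0.17, Mrpl30 at −0.67 ± 0.16, Mrpl34 at −0.65 ± 0.14, Mrpl18 at −0.64 ± 0.16 and Mrpl4 at −0.49 ± 0.12 (log2 fold change ± SE). Also past the test were Mrpl13, Mrpl17, Mrpl19, Mrpl21, Mrpl23, Mrpl27 and Mrpl35. Of the 13 that did not pass, Mrpl3, a gene mutated in a human disease of mitochondrial translation, was at −0.27 ± 0.13 (adjusted p = 0.173) and Mrpl33 at −0.50 ± 0.17 (adjusted p = 0.0585). The rest were Mrpl1, Mrpl9, Mrpl10, Mrpl14, Mrpl15, Mrpl16, Mrpl22, Mrpl24, Mrpl32, Mrpl36 and Mrpl47.

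Of the 19 large subunit genes without a bacterial relative, 10 fell (median −0.48), where 7.58% of all tested genes fell. Mrpl52 had the lowest value at −0.72 ± 0.18 (limma adjusted p = 0.0215), with 38.5, 39.9 and 51.1 CPM in the double lesion and 62.9, 89.7 and 63.6 CPM in Vav Cre. Mrpl48 had 76.8, 80.5 and 80.5 CPM in the double lesion and 111, 129.8 and 110.4 CPM in Vav Cre (−0.55 ± 0.11, adjusted p = 0.0115). For both genes the libraries of the 2 groups did not overlap, and those of Mrpl48 differed little within the double lesion. The others that fell were Mrpl37, Mrpl38, Mrpl40, Mrpl41 (−0.57 ± 0.15), Mrpl43, Mrpl51, Mrpl54 and Mrpl57. Without double lesion 1 none of the 10 passed, and without Vav Cre 2 Mrpl48 did (adjusted p = 0.038). Those that did not pass were Mrpl39, Mrpl42, Mrpl44, Mrpl45, Mrpl46, Mrpl49, Mrpl50, Mrpl53 and Mrpl55.

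Mrpl44, which carries a fold related to the RNA-cutting enzyme RNase III and is mutated in a human heart disease of mitochondrial translation, had a value near 0. It was at 85, 90.9 and 99.1 CPM in double lesion libraries 1, 2 and 3, 80.2, 98.5 and 93.9 CPM in KDM6B OE and 87.5, 110.4 and 95.7 CPM in Tet2 KO, with 91.6, 88.8 and 98 CPM in Vav Cre. The 4 groups overlapped, and Vav Cre 2 was the lowest Vav Cre library here. The change in the double lesion was −0.02 ± 0.12 (limma adjusted p = 0.929), and its sign turned under 7 of the other 23 fits. Some of those 23 fits cannot change the fold change. Its exons overlap Wdfy1 on the opposite strand, and the library kit does not mark strand.

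In the small subunit, 13 of 29 genes fell, with a median of −0.46, where 7.58% of all tested genes fell. Among the 18 with a bacterial relative, 9 fell (median −0.52). Mrps15 (chromosome 4, 126046925 to 126055532), whose bacterial relative binds the small ribosomal RNA early in assembly, was at 76.9, 93.3 and 89.6 CPM in the double lesion and 125, 170.1 and 127 CPM in Vav Cre. KDM6B OE with 102, 110.4 and 115 CPM and Tet2 KO with 102, 117 and 119 CPM lay between, with no overlap with either group. The double lesion mean was 61.5% of the Vav Cre mean, a change of −0.68 ± 0.13 (limma adjusted p = 0.00809; 0.0495 without double lesion 1 and 0.023 without Vav Cre 2). Mrps9, whose relative reaches the peptidyl tRNA site in bacteria, had 50.1, 57.4 and 60.8 CPM in the double lesion and 89, 94.7 and 73.8 CPM in Vav Cre (−0.60 ± 0.12, adjusted p = 0.00953). The remaining calls were Mrps10 at −0.51 ± 0.12, Mrps12 at −0.60 ± 0.14, Mrps14 at −0.54 ± 0.14, Mrps16 at −0.55 ± 0.16 and Mrps28 at −0.69 ± 0.17, beside 2 of the Mrps18 genes. Mrps12 is the relative of the bacterial protein in which streptomycin resistance arises, and Mrps16 and Mrps22 are mutated in human diseases of mitochondrial translation.

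The 3 paralogs Mrps18a, Mrps18b and Mrps18c descend from 1 bacterial protein, and in known structures the Mrps18a protein sits in the large subunit. Mrps18c (chromosome 5, 100798627 to 100804471) was at 46.4, 51.9 and 54.3 CPM in the double lesion and 79.9, 116 and 69.1 CPM in Vav Cre. It fell by 0.75 ± 0.16 (limma adjusted p = 0.0147). Mrps18a (chromosome 17, 46110986 to 46128910) was at 51.6, 70.5 and 69 CPM in the double lesion and 97.4, 106 and 89.5 CPM in Vav Cre. It fell by 0.62 ± 0.14 (limma adjusted p = 0.0157). Mrps18b was at 69.7, 79.5 and 81.4 CPM in the double lesion and 87.3, 119.5 and 77.1 CPM in Vav Cre, with a change of −0.28 ± 0.14 (adjusted p = 0.204). The libraries of the 2 groups did not overlap for Mrps18a and Mrps18c and did for Mrps18b, where Vav Cre 3 lay below double lesion 2 and 3. Whether the paralogs differ from each other was not tested. Without double lesion 1 the adjusted p was 0.0759 for Mrps18c and 0.0815 for Mrps18a, and without Vav Cre 2 it was 0.0371 and 0.0527.

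**Figure D3:**
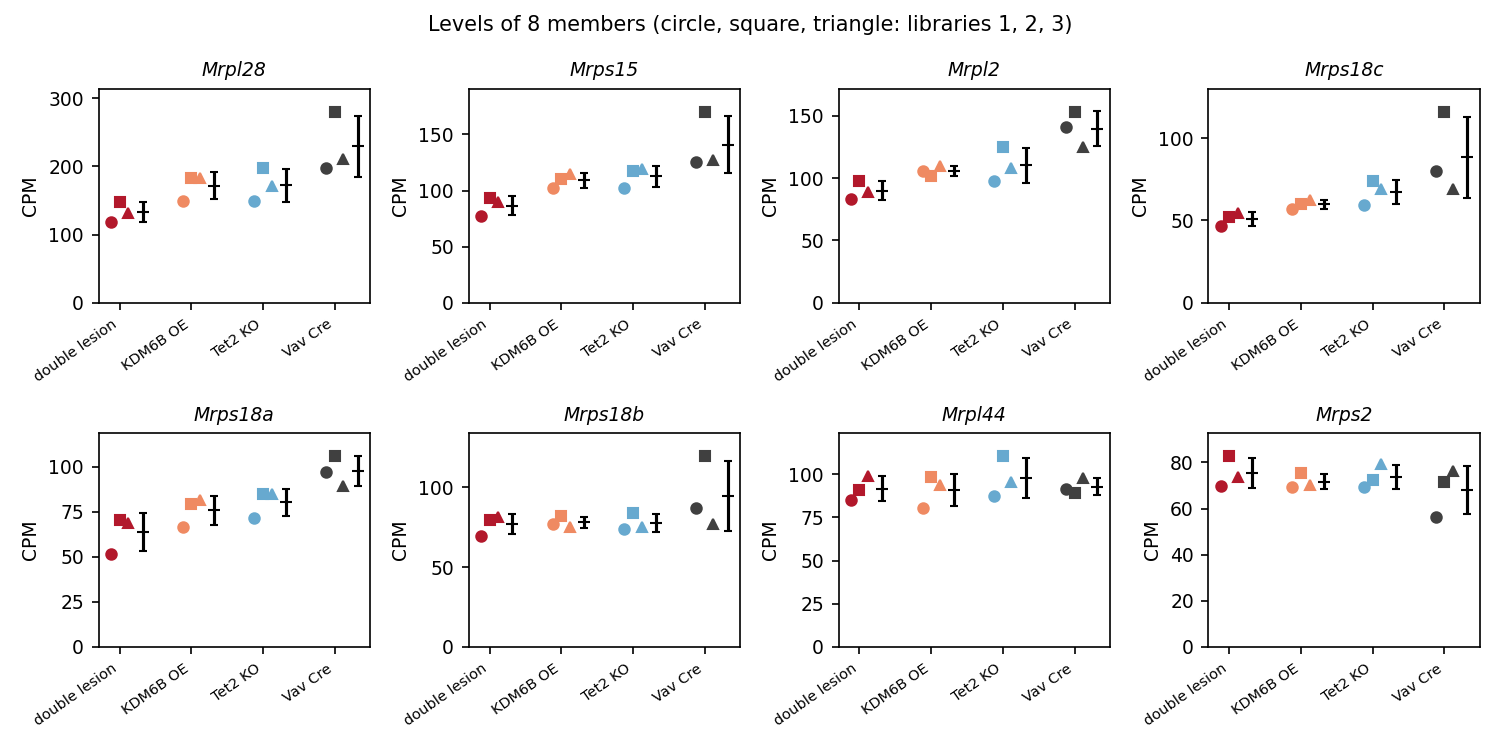
Level in CPM (vertical axes, from 0) of 8 members in the 3 libraries of each group (circle, square and triangle for libraries 1, 2 and 3), with mean ± SD bars. Mrpl28, Mrps15, Mrpl2, Mrps18c and Mrps18a have every double lesion library below every Vav Cre library, whereas in Mrps18b, Mrpl44 and Mrps2 the groups overlap.

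Among the 11 small subunit genes without a bacterial relative, 4 fell (median −0.42), where 7.58% of all tested genes fell. These were Mrps35 at −0.70 ± 0.15, Mrps22 at −0.60 ± 0.16, Mrps25 at −0.59 ± 0.16 and Mrps26, and without double lesion 1 or without Vav Cre 2 none of the 4 passed. Mrps36 is counted here by its name and is known as a part of the 2-oxoglutarate dehydrogenase complex of the citric acid cycle. It was at 26.1, 36.6 and 34.2 CPM in the double lesion and 37.2, 70.7 and 41.8 CPM in Vav Cre. Its groups did not overlap, but 2 Vav Cre libraries lay close to the double lesion and the change of −0.57 ± 0.24 did not pass (limma adjusted p = 0.116). Mrps30, found in the large subunit in known structures, was at −0.20 ± 0.12 (adjusted p = 0.257). Mrps34, mutated in a human disease of mitochondrial translation, was at −0.25 ± 0.12 (adjusted p = 0.159), with overlapping exons of Nme3 and Mapk8ip3. Mrps23, Mrps27, Mrps31 and Mrps33 did not pass either.

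The 2 members above 0 in the double lesion were small subunit genes with a bacterial relative. Mrps2 was at 69.8, 82.7 and 73.5 CPM in the double lesion and 56.3, 71.4 and 76.4 CPM in Vav Cre (0.15 ± 0.13, limma adjusted p = 0.432). Mrps5 was at 58.8, 56.4 and 59.1 CPM in the double lesion and 51.7, 49.4 and 75.9 CPM in Vav Cre (0.00 ± 0.16, adjusted p = 0.989). The groups overlapped in Mrps2, and in Mrps5 the Vav Cre libraries lay on both sides of the double lesion. The sign of Mrps5 turned under 8 of the other 23 fits, some of which cannot change the fold change. Mrps7, an early binder of the small ribosomal RNA in bacteria, was at −0.08 ± 0.12 (adjusted p = 0.675). The other small subunit genes with a bacterial relative that did not pass were Mrps6, Mrps11, Mrps17, Mrps21 and Mrps24, beside Mrps18b.

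A pair of libraries stood at the ends of the range for most members. Vav Cre 2 was the highest of the 12 libraries for 72 of the 77 genes (93.5%), and for 20.6% of all tested genes. Double lesion 1 was the lowest for 60 of the 77 (77.9%), and for 15.8% of all tested genes. The median SD of the 77 genes between libraries of a group, on the log2 scale, was 0.14 in the double lesion, 0.12 in KDM6B OE, 0.19 in Tet2 KO and 0.28 in Vav Cre. Over all tested genes it was 0.15, 0.15, 0.21 and 0.28 in the same order. All tested genes include genes of lower level than any member, and the SD was not compared at matched level.

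**Figure D4:**
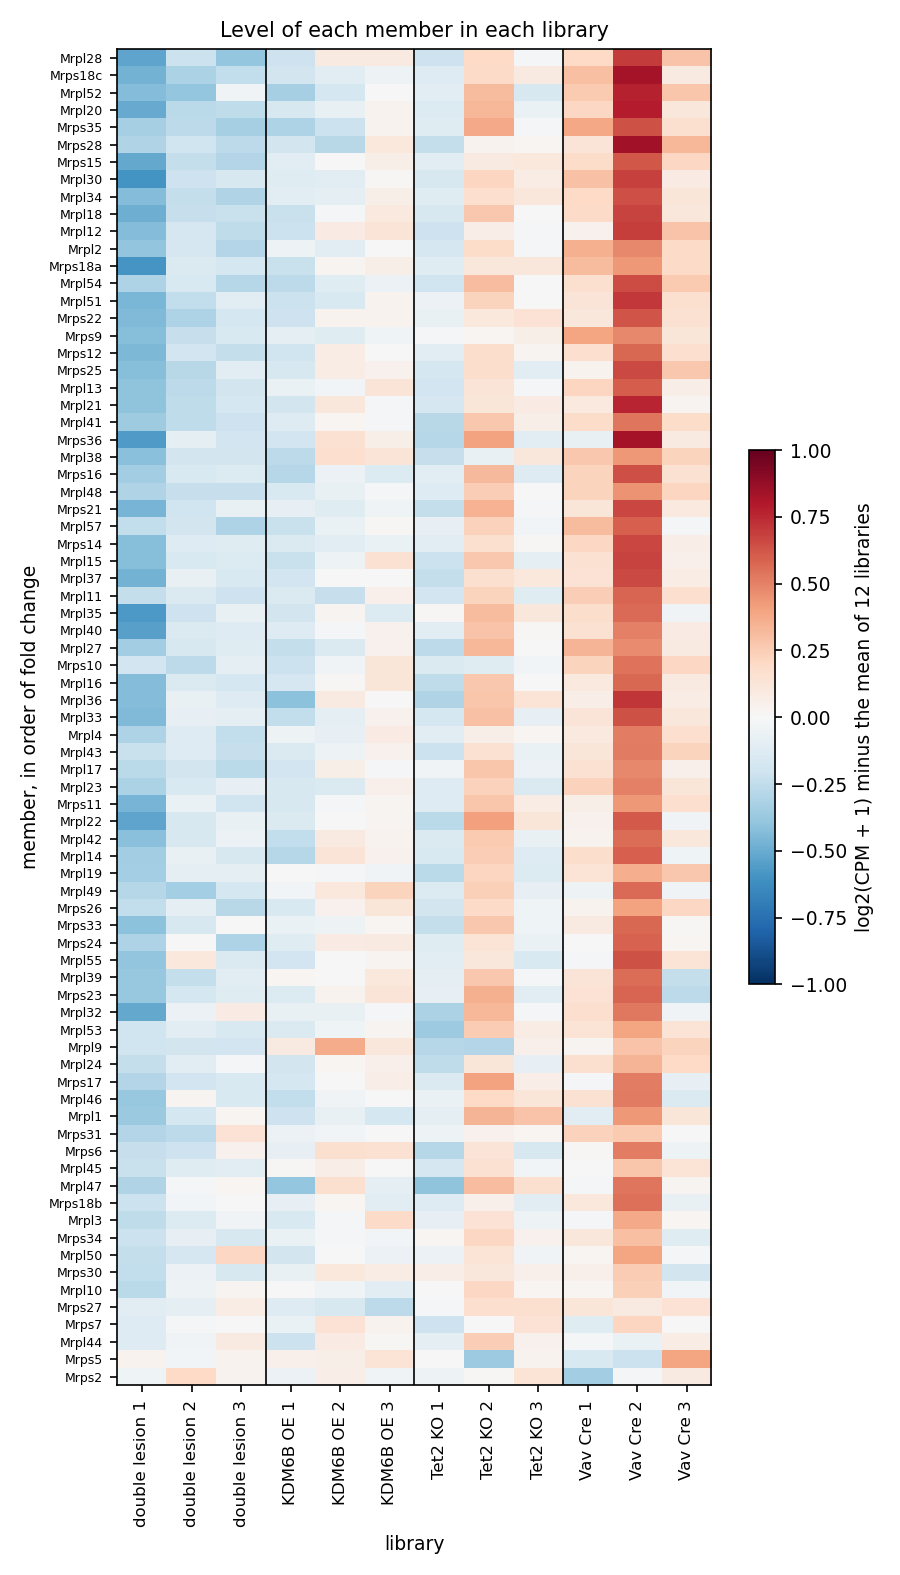
Level of each of the 77 genes (rows, ordered by the double lesion fold change over Vav Cre) in each of the 12 libraries (columns), as log2(CPM + 1) minus the mean of the gene over the 12 libraries. Vav Cre 2 is the darkest red column, highest for 72 genes, and double lesion 1 the darkest blue, lowest for 60.

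Members with short transcripts had somewhat lower values. The 39 genes with a main transcript of at most 1288 bases had a median of −0.52 (22 fell), and the 38 longer ones had a median of −0.41 (17 fell). By the same test 7.58% of all tested genes fell. Across the 77 genes, Spearman's rho of the fold change was 0.34 with transcript length, −0.21 with GC content and −0.16 with mean level, as a description over genes that share the same libraries. With the trend of each library on length and GC content removed, 34 genes fell, 32 of them among the 39, with a median of −0.36, where 9.05% of all genes fell. The 32 members whose exons overlap another gene had a median of −0.42 (12 fell), against −0.53 for the other 45 (27 fell). How reads from such overlaps were counted, or whether they were dropped, is not given, so values of these members are less certain. They include Mrpl12, Mrpl18, Mrpl48, Mrps25 and, with a gene on the same strand, Mrps18c. The part of transcript length in the result was not tested beyond this fit.

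Neither lesion alone gave a member past the limma test. The KDM6B OE label names no Cre, so an effect of Cre cannot be told apart from that of the transgene against Vav Cre. In KDM6B OE against Vav Cre, 0 of 77 genes passed in limma and 0 in edgeR, where limma called 0.0767% of all genes lower and 0.521% higher. DESeq2 called 10 lower, and 2.84% of all genes. At an unadjusted p under 0.05 there were 32, against 21.6% of all genes. The median was −0.30, against 0.04 over all genes, and 73 values were negative, against 45% of all genes. Without Vav Cre 3, 19 members passed, and 4.73% of all genes fell. The lowest values were Mrpl52 with 41.3, 46.1 and 52.3 CPM in KDM6B OE and 62.9, 89.7 and 63.6 CPM in Vav Cre (−0.61 ± 0.18, limma adjusted p = 0.116) and Mrps35 with 55.9, 59.7 and 71.4 CPM in KDM6B OE and 91, 109 and 77.8 CPM in Vav Cre (−0.56 ± 0.15, adjusted p = 0.108). For both genes every KDM6B OE library lay below every Vav Cre library, which adds no support, since they were picked for their low values. At the other end stood Mrps2 at 0.08 ± 0.13 and Mrps5 at 0.07 ± 0.16.

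In Tet2 KO against Vav Cre, 0 of 77 genes passed in limma, edgeR and DESeq2, where limma called 0.00767% of all genes lower and 0.023% higher. At an unadjusted p under 0.05 there were 20, against 13.5% of all genes. The median was −0.26, against 0.03 over all genes, and −0.11 without Vav Cre 2. The smallest adjusted p was that of Mrps10, with 77.3, 78.9 and 84.1 CPM in Tet2 KO and 100.1, 125 and 99.2 CPM in Vav Cre (−0.42 ± 0.12, limma adjusted p = 0.236). Mrps28 had the lowest value at −0.50 ± 0.17 (adjusted p = 0.263). Every Tet2 KO library of Mrps10 and Mrps28 lay below every Vav Cre library. Both genes were picked as extremes of the 77, so this adds no support. These comparisons share the Vav Cre libraries with that of the double lesion, so the 3 medians of −0.50, −0.30 and −0.26 are not independent of each other.

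No member passed the test between the double lesion and either single lesion. By label the double lesion and KDM6B OE differ in Cre as well as in Tet2. Against KDM6B OE, 0 of 77 genes passed in limma, edgeR and DESeq2, where limma called 0% of all genes, 4 had an unadjusted p under 0.05, against 5.91% of all genes, and the median was −0.18. Mrpl9 had the lowest value at −0.38 ± 0.13 (limma adjusted p = 0.656), with 42.9, 43.2 and 43 CPM in the double lesion and 52.6, 64.1 and 53.3 CPM in KDM6B OE. These did not overlap, in a gene picked as the lowest of the 77. Against Tet2 KO, 0 of 77 passed in limma, edgeR and DESeq2, where limma called 0.023% of all genes lower and 0.192% higher. There 17 had an unadjusted p under 0.05, against 10.6% of all genes, and the median was −0.24. Mrps15 was at −0.38 ± 0.13 (limma adjusted p = 0.36) and Mrpl35 had the lowest value at −0.43 ± 0.17 (adjusted p = 0.412).

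The interaction compares the double lesion with the sum of both single lesions. By label KDM6B OE is the only group without Cre, so any effect of Cre stays in this value and cannot be told apart. None of the 77 genes passed in limma, edgeR or DESeq2, where 0% of all genes passed in limma. None had an unadjusted p under 0.05, against 4.43% of all genes. The median was 0.06, against −0.03 over all genes, and its range over left-out libraries was −0.08 to 0.17. The extremes were Mrps28 at 0.36 ± 0.24 and Mrps30 at −0.23 ± 0.16 on the log2 scale.

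Other proteins of the mitochondrial ribosome are listed under names outside the Mrpl and Mrps series, and 4 of the 6 fell in the double lesion (median −0.50), where 7.58% of all tested genes fell. Ict1, the older symbol of Mrpl58, a peptidyl-tRNA hydrolase built into the large subunit, was at 32, 39 and 43.9 CPM in the double lesion and 59, 78.1 and 61.9 CPM in Vav Cre. It changed by −0.78 ± 0.16 (limma adjusted p = 0.0107), with 0.063 without double lesion 1 and 0.038 without Vav Cre 2. Chchd1, Gadd45gip1 and Aurkaip1 fell with values of −0.65, −0.52 and −0.48, and each of these calls ended without double lesion 1 and without Vav Cre 2. Dap3 at −0.12 ± 0.12 and Ptcd3 at −0.26 ± 0.17 did not pass.

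Of 33 genes for assembly of the mitochondrial ribosome and modification of its RNA, 0 fell and 3 rose in limma (9.09%), near the 7.34% of all tested genes that rose. Their median was −0.10, and 9 of the 33 had an unadjusted p under 0.05, as did 32.3% of all tested genes. EdgeR called 2 higher and 0 lower, and DESeq2 called 4 higher and 1 lower, where they called 5.52% and 9.25% of all genes higher. Those past the test in limma were Gtpbp6 at 0.71 ± 0.20, the ribosomal RNA methyltransferase Mrm1 at 0.50 ± 0.15 and the RNA helicase Dhx30 at 0.45 ± 0.13. None of the 17 mitochondrial aminoacyl-tRNA synthetases, which charge the mitochondrial tRNAs, passed in limma or edgeR (median −0.09, 1 lower in DESeq2). Of these, 4 had an unadjusted p under 0.05, against the same 32.3% of all tested genes. Of 17 translation factors, 3 fell (17.6%, against 7.58% of all tested genes) and 1 rose (median −0.25). The elongation factors Tufm at −0.47 ± 0.12 and Tsfm at −0.55 ± 0.17 fell, as did 2810006K23Rik at −0.56 ± 0.15. Gfm2, which takes part in ribosome recycling, rose by 0.68 ± 0.16. Without double lesion 1 none of these genes passed, and without Vav Cre 2 Gfm2 did (adjusted p = 0.0445).

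Of 12 genes for mitochondrial transcription and DNA upkeep, the RNA polymerase gene Polrmt rose and no other passed (median −0.10). This was 8.33%, near the 7.34% of all tested genes that rose. Polrmt was at 48.8, 51.1 and 48.5 CPM in double lesion libraries 1, 2 and 3 and at 18.4, 12.8 and 40.6 CPM in Vav Cre. The groups did not overlap, but Vav Cre 3 lay far above the other Vav Cre libraries. The change was 1.18 ± 0.33 (limma adjusted p = 0.0324, with 0.108 without double lesion 1 and 0.123 without Vav Cre 2). EdgeR called none of the 12. DESeq2 called Polrmt higher (adjusted p = 0.0158) and 1 other gene lower, where it called 9.25% of all genes higher and 11.3% lower. Of 12 nuclear regulators of mitochondrial genes, Myc rose (8.33%, near the 7.34% of all tested genes that rose). Its value was 0.61 ± 0.14 (limma adjusted p = 0.0155, and 0.0529 without Vav Cre 2). Nrf1 at 0.19 ± 0.19 and Gabpa at −0.04 ± 0.13, which bind promoters of many mitochondrial genes, and Yy1 at −0.47 ± 0.15 (adjusted p = 0.0546) did not pass. Among these 12 regulators edgeR called 1 higher and 0 lower, and DESeq2 called 1 higher and 2 lower. Transcripts of mitochondrial DNA itself were not analysed here.

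The 2 other large sets of nuclear genes for translation and respiration moved in the same direction as the members. Of 78 cytosolic ribosomal protein genes, 74 fell in the double lesion (median −0.67), and of 76 nuclear-encoded respiratory chain genes, 52 fell (median −0.56). Without Vav Cre 2 the counts were 40 and 11, where 2.34% of all genes fell, and without double lesion 1 they were 7 and 1, where 1.09% fell. Without both double lesion 1 and Vav Cre 2 the counts were 2 and 0, with medians of −0.43 and −0.32. Over all tested genes 7.58% fell, and 0.433% without both libraries. Whether the gene sets differ from each other was not tested.

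**Figure D5:**
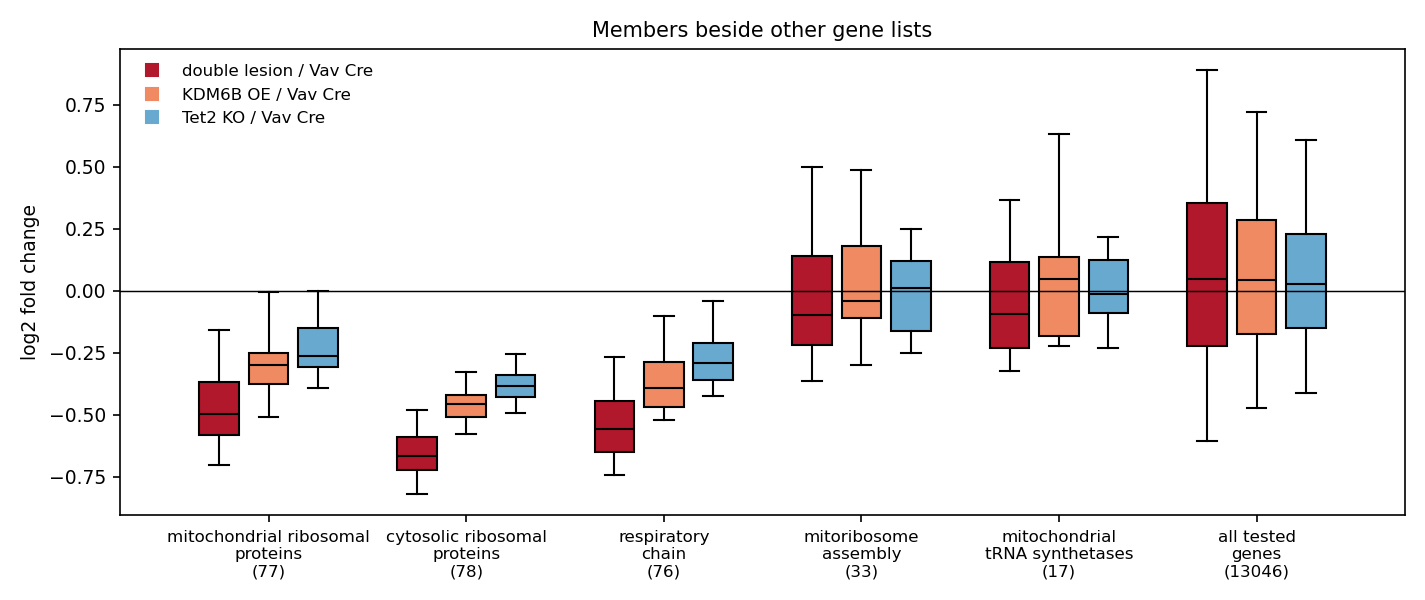
Log2 fold changes against Vav Cre (vertical axis) for the members and other gene lists (horizontal axis, number of genes in brackets) in the double lesion, KDM6B OE and Tet2 KO. Boxes span the quartiles with the median as a line, and whiskers span the 5th to 95th percentile; in the double lesion the medians are −0.50 for the members, −0.67 for cytosolic ribosomal proteins and −0.10 for assembly genes.

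Marker levels of other cells differed between libraries. The summed level of 5 erythroid markers was 224 to 530 CPM in the double lesion, 384 to 413 CPM in KDM6B OE and 303 to 619 CPM in Tet2 KO, with 287 to 1611 CPM in Vav Cre. The value of 1611 CPM was that of Vav Cre 2 and came mostly from Car1 at 1423 CPM, while Alas2 was at 2.15 CPM there. In the double lesion 1 of the 5 markers rose, where 7.34% of all tested genes rose. The sum of 10 LSK markers was 3129 to 3820 CPM in the double lesion, 2956 to 3299 CPM in KDM6B OE and 2733 to 3578 CPM in Tet2 KO, with 2146 to 3002 CPM in Vav Cre. It was highest in double lesion 1 and lowest in Vav Cre 2, and 2 of the 10 rose in the double lesion, against the same 7.34%. The sum of 20 immediate early genes, which respond within minutes to stimuli and handling, was 7748 to 11668 CPM in the double lesion, 7840 to 11067 CPM in KDM6B OE and 1524 to 3217 CPM in Tet2 KO, with 1375 to 2648 CPM in Vav Cre. Of the 19 tested, 15 rose in the double lesion against Vav Cre, where 7.34% of all genes rose. In KDM6B OE against Vav Cre 14 rose, where 0.521% of all genes rose, and in Tet2 KO none passed.

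Some further marker lists held genes past the test. Of 9 neutrophil markers 3 rose in the double lesion (median 0.80 in limma and 3.0 in edgeR), against 7.34% of all genes. These were S100a8, S100a9 and Ngp, none above 11.1 CPM in any double lesion library, and the summed level of the list was 3024 to 5893 CPM in the double lesion, 2670 to 3741 CPM in KDM6B OE and 2730 to 7257 CPM in Tet2 KO, with 2228 to 4883 CPM in Vav Cre. Of 6 mast cell and basophil markers Gata2 rose (median 0.57), where 7.34% of all genes rose. Their sum was 598 to 703 CPM in the double lesion, 357 to 579 CPM in KDM6B OE and 485 to 753 CPM in Tet2 KO, with 252 to 604 CPM in Vav Cre. Of 5 megakaryocyte markers Pf4 fell (median −0.65), where 7.58% of all genes fell. Their sum was 181 to 231 CPM in the double lesion, 163 to 197 CPM in KDM6B OE and 168 to 229 CPM in Tet2 KO, with 152 to 296 CPM in Vav Cre. Without both double lesion 1 and Vav Cre 2, 2 neutrophil markers passed and none of the mast cell and basophil or megakaryocyte markers. None of 7 monocyte and macrophage markers passed in limma or edgeR (median 0.75, 2 with an unadjusted p under 0.05, 1 higher in DESeq2), and none of the 4 tested T and NK cell markers in limma, edgeR or DESeq2 (median −0.12, 1 with an unadjusted p under 0.05). Over all tested genes 32.3% had an unadjusted p under 0.05. The summed T and NK cell level was 309 to 322 CPM in the double lesion, 271 to 382 CPM in KDM6B OE and 302 to 351 CPM in Tet2 KO, with 335 to 460 CPM in Vav Cre, and came mostly from Nkg7. For the neutrophil, mast cell and basophil, and megakaryocyte lists the summed levels of the double lesion and of Vav Cre overlapped. The part of these cells and of handling in the values of the members was not tested.

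Start regions were read for the members, since the genes moved together. RefSeq windows of 300 bases (250 before and 50 after a start, GRCm38.p6) were found for 68 of the 77 genes, and 4 motifs were searched on both strands. NRF1's motif, GCGC and TGCGC with any 1 base between, was in the windows of 13 genes (19.1%), against 11.4% of tested genes with a window and 5.19% of all genes with one. An ETS motif, ACTTCCG, as bound by GABPA, was in 17 (25%), against 14.8% and 7.20%. YY1's motif, AAGATGGCG, was in 8 (11.8%), against 3.56% and 1.64%. The E-box CACGTG, as bound by MYC, was in 5 (7.35%), against 11.9% and 8.09%. Among members that fell, 6, 10, 3 and 4 of 32 held the NRF1, ETS, YY1 and E-box motifs, and among those that did not pass, 7, 7, 5 and 1 of 36. A match is a description of letters and not a bound site.

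The windows of 5 members show these motifs, in capitals, in genes whose values differed. Mrps18c (chr5:100798509-100798808, plus strand), which fell, has an E-box that runs into an ETS motif. Mrps18a (chr17:46110754-46111053, plus strand), which fell, has an ETS motif on the minus strand and a YY1 motif close after it. Mrpl12 (chr11:120484387-120484686, plus strand), which fell, has 1 NRF1 motif. Mrpl44 (chr1:79775768-79776067, plus strand), which did not pass, has 1 NRF1 motif on the minus strand. Mrps11 (chr7:78782881-78783180, plus strand) has a YY1 motif on the minus strand, and its window lies inside the annotated Mrpl46 gene, which is read on the other strand.
Mrps18c: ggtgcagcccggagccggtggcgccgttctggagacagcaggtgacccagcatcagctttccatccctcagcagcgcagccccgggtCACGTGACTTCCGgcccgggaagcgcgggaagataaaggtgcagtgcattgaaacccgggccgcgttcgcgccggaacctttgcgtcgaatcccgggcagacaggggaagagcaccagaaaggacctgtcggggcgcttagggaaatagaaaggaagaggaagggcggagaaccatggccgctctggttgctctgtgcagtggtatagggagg
Mrps18a: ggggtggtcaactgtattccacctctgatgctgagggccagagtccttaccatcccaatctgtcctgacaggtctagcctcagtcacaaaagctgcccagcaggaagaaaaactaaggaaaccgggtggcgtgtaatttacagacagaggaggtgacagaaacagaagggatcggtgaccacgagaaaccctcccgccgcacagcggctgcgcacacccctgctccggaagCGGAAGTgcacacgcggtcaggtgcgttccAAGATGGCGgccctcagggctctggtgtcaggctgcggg
Mrpl12: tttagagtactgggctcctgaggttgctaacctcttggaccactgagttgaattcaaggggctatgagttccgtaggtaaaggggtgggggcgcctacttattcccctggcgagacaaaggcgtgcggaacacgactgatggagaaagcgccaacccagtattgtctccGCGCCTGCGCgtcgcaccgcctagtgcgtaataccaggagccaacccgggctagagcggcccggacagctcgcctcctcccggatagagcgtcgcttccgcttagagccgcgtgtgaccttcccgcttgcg
Mrpl44: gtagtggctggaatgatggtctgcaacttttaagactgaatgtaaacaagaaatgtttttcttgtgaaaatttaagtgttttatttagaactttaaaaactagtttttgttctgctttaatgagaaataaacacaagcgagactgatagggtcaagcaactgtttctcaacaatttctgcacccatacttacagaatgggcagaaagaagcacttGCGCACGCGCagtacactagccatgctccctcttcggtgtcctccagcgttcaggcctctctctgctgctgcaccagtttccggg
Mrps11: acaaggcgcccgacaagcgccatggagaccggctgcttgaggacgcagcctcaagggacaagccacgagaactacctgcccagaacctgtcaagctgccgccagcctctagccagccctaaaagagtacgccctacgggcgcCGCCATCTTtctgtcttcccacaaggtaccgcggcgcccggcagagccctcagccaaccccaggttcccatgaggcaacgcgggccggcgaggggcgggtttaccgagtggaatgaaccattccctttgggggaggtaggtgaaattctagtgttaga

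Mrps11 and Mrpl46 were chosen for this overlap after their values were seen. Mrps11 was at 33.3, 44.2 and 40.3 CPM in the double lesion and 48.4, 62.9 and 52.1 CPM in Vav Cre (−0.46 ± 0.15, limma adjusted p = 0.0562). Mrpl46 was at 58.3, 77.5 and 68.1 CPM in the double lesion and 84.3, 109 and 68.7 CPM in Vav Cre (−0.34 ± 0.16, adjusted p = 0.162). Neither passed, and the groups did not overlap for Mrps11 and did for Mrpl46. Their exons overlap head to head, so without strand their reads there cannot be told apart.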

How the data were processed

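Sorted cells gave 10 to 20 ng of total RNA, which was amplified, per the labels' protocols, with the SMARTer v4 kit and made into libraries with the Nextera kit, which do not mark strand. Per the submitters' processing notes, the authors used TopHat2 2.0.10 with the mm10 build, then HTSeq 0.6.0, then edgeR 3.8.6. Not given in the sources used here are the gene annotation and whether counting used strand. The deposited table holds a signal unit, CPM (counts over the authors' scaled library sizes), for 15366 genes with at least 10 reads over the 12 libraries. Every value gave back whole reads (100% within 1e-06 reads). No pair of replicates agreed within sampling noise (chi-square 18.3 to 94.2 per gene).

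The log2(CPM + 1) values were fitted in limma 3.58.1 (R 4.3.3; empirical Bayes with a mean trend, 1 mean per group, 8 residual degrees of freedom) on the 13046 genes above 1 CPM in 3 or more libraries, all 12 libraries in 1 fit. Benjamini-Hochberg adjustment ran over all tested genes, and an adjusted p under 0.05 was called. Fold changes on this scale understate the change of low genes. The recovered counts were also tested with edgeR 4.0.16 and DESeq2 1.42.0. The steps were tested on simulated data. The design had foreseen plain CPM, and its test was kept.

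Transcript lengths and overlaps came from GENCODE vM21 (GRCm38), with the APPRIS principal transcript as the main one. Of 83 annotated Mrpl and Mrps genes, 6 had no row under that symbol, 5 pseudogenes and Mrpl58, listed as Ict1. Same-numbered libraries deviated together in Tet2 KO and Vav Cre (correlations 0.34, 0.34 and 0.30) and by rule in no other pair of groups, and a replicate block changed no member's call between these 2. Members and gene lists were chosen with earlier results of these data known, and the split by bacterial relatives after values were seen. Named members were those called (up to 25 by adjusted p), the 4 highest and lowest per comparison, the extremes of level, and a list by role. The number of libraries, 3 per group, limits the precision more than depth. One marker list is not reported here.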

Additional observations from a re-analysis of the deposited data

How the results depend on the processing

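Each comparison was refitted under up to 22 alternatives, and the double lesion against Vav Cre also without both double lesion 1 and Vav Cre 2, a choice made after seeing the data. The 39 members lower in the double lesion than in Vav Cre became 3 when the fit held the compared groups alone (1.09% of all genes lower, against 7.58%) and 0 without those 2 libraries (0.433%), with a median of −0.26. The count was 2 to 55 with 1 library left out (2 without double lesion 1, with 1.09% of all genes lower, and 55 without Vav Cre 3, with 11.9%), and the median −0.59 to −0.35. With the share of all genes called lower in brackets, it was 38 with a pseudocount of 0.25 (7.56%), 37 without the filter (5.82%), 33 rescaled to equal totals (5.85%), 26 with a sex term (5.3%), 36 with array weights (8.84%), 34 with length and GC trends removed (9.05%), 38 in edgeR (7.14%) and 48 in DESeq2 (11.3%). Rescaling changed the split of all calls to 1286 higher and 763 lower, against 958 and 989. With the replicate number as a block the count was 51 (10.1%), although the numbers do not pair these groups by the rule used (same-number correlations 0.32, 0.15 and −0.15); 2 of 3 double lesion libraries correlated best with their own number in Vav Cre. In KDM6B OE against Vav Cre the 0 calls became 2 with the replicate block (0.744% of all genes lower), 4 with array weights (1.79%), 10 in DESeq2 (2.84%) and 0 to 19 with 1 library left out (4.73% for the 19, without Vav Cre 3); the cause was not tested. Medians with 1 library left out were −0.37 to −0.17 in KDM6B OE and −0.36 to −0.11 in Tet2 KO against Vav Cre. No member was called in any fit run for Tet2 KO against Vav Cre, for the double lesion against KDM6B OE or Tet2 KO, or for the interaction.

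Of 1150 refitted values of the 50 named members, 963 kept direction and side of the threshold, 145 lost and 21 gained the call, and 21 changed sign. Many of these refits could not change the fold change, only its p-value. They are those without a KDM6B OE or Tet2 KO library, without the filter, with the replicate block or with the compared groups alone. The count of 963 therefore overstates how stable the direction is. Mrpl44 turned to 0.064 rescaled, 0.0073 with a sex term, 0.14 with length and GC trends removed, 0.011 with array weights and 0.0020 without both libraries, and it was −0.076 to 0.033 with 1 library left out. Mrps5 turned to −0.12 with length and GC trends removed, −0.022 in edgeR, −0.046 in DESeq2 and −0.12 without both libraries, and it was −0.11 to 0.20 with 1 library left out. Mrps7 turned to 0.00067 rescaled, 0.0065 with array weights and 0.048 without both libraries, and it was −0.16 to 0.0094 with 1 library left out. Mrpl47 was at 0.0013 and Mrpl50 at 0.019 without both libraries. None of these 5 passed the test in the fit reported. Depth limits the members little: 1 read was worth at most 0.0463 CPM, and no member averaged under 29.5 CPM.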
